A study of Homo sapiens with 160 samples.

Results

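CNR1, RGCC and MARCHF10 are 3 genes that mometasone induced in BEAS-2B, a line of human bronchial epithelium made to grow without limit. They were chosen by name, after an earlier look at the same data had placed them among the strongest responses to mometasone, and they are 3 of the 29273 genes with deposited values. The contrasts that selected them set mometasone against vehicle and all 3 agents against indacaterol with carbachol. Those contrasts are therefore given below as a description, without a test. Confluent cells were held overnight in serum-free medium and then received vehicle, mometasone (100 nM), indacaterol (100 nM), carbachol (10 µM), each pair of these agents, or all 3 agents. RNA was collected at 1, 2, 6 and 18 h, and the cells were labelled wild type in every group. Of 160 libraries planned as 32 groups of 5, 150 were used: 24 groups held 5 libraries, 6 held 4, and 2 held 3, which were mometasone alone and all 3 agents at 18 h. Replicate 5 was missing at 1 h from mometasone alone and from all 3 agents.

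Mometasone is an inhaled glucocorticoid that binds the glucocorticoid receptor, a transcription factor that then enters the nucleus and binds DNA. Indacaterol is a long-acting inhaled bronchodilator that raises cyclic AMP, and carbachol activates acetylcholine receptors, in airway cells mainly muscarinic ones. CNR1 encodes the cannabinoid receptor CB1, a receptor coupled to inhibitory G proteins and best known from neurons, where it limits transmitter release. RGCC encodes RGC-32, a small protein first described as a response gene to complement that binds the mitotic kinase CDK1 and takes part in SMAD signalling. MARCHF10 encodes a RING-CH ubiquitin ligase of the membrane-associated MARCH family that is known from developing spermatids.

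In GENCODE 29, on the genome GRCh38, CNR1 occupies chromosome 6 from 88139864 to 88166359 on the minus strand. RGCC lies on chromosome 13 from 41457559 to 41470882 on the plus strand. MARCHF10, listed there as MARCH10, lies on chromosome 17 from 62701314 to 62808344 on the minus strand. Its 3′ part overlaps AC005821.1, an antisense RNA gene on the plus strand (chromosome 17, 62699244 to 62737922). Whether counting used strand is not given in the sources used here, so reads of MARCHF10 and of this antisense gene cannot be told apart. The bases just before 1 annotated start of each gene are shown because the 3 genes moved together with mometasone and differed in their response to indacaterol. They are RefSeq sequences of GRCh38.p14, written 5′ to 3′ on the strand of the gene. Capitals mark AGAACA, one arm of the palindrome that the glucocorticoid receptor binds, and TGACG, one arm of the cyclic AMP response element, on either strand.
CNR1, most upstream of 6 listed starts, chr6:88167350-88167599, minus strand: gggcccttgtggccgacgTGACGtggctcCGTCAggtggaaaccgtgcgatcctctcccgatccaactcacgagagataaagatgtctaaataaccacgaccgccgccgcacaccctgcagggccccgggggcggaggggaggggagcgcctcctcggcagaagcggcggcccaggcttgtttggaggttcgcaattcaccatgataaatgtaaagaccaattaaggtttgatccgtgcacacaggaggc
RGCC, chr13:41457300-41457549, plus strand: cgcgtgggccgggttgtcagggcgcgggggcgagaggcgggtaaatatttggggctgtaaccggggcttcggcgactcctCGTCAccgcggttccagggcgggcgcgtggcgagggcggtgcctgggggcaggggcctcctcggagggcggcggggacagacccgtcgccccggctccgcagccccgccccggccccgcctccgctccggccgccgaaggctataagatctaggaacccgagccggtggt
MARCHF10, chr17:62806654-62806890, minus strand: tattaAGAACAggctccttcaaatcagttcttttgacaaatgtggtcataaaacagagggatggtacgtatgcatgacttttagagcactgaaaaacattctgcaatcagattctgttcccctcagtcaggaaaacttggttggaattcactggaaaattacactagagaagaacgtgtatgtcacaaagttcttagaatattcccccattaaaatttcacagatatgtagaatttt
The MARCHF10 window precedes a start that lies inside the gene as GENCODE 29 draws it, and its last 13 bases, which reach an annotated exon, are not printed.

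The full palindrome, AGAACA and TGTTCT with 3 bases of any kind between them, its looser core ACANNNTGT and the full element TGACGTCA were found in none of these windows, nor before the other 5 listed starts of CNR1. Over the 250 bases before each of 34943 listed starts of all genes, 0.00286% held the first, 4.62% the second and 1.63% the third. AGAACA, found once before MARCHF10, was held by 12.4% of all windows. TGACG is contained in the full element. It was found at 2 places before the most upstream start of CNR1, at 1 before another of its starts and at 1 before RGCC, and 21.2% of all windows held it. Such matches describe letters in these windows and are no measure of binding.

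The values are the authors' normalised expression values, and read depth is unknown. Differences are of log2(value + 1), so that the change of low genes is understated. They come from 1 limma model over all 32 groups, with Benjamini-Hochberg adjustment over the 14827 genes that reached 1 in 5 or more libraries. A gene counts as called where its adjusted p is below 0.05. Ranges that are apart and counts of same-numbered pairs describe the 3 genes, and the share of all genes with such ranges or pairs was not computed. Separate cultures for the replicates are not stated, so p-values measure the spread between these libraries, which may be technical. In bulk RNA, a change in the share of cells that express a gene and a change in RNA per cell cannot be told apart. Keratin genes KRT8 and KRT18, markers of simple epithelium, had means of 302.7 and 367.2, while the epithelial adhesion gene EPCAM (0.260) and the basal cell regulator TP63 (0.165) stayed below 1. Of 9 epithelial markers, 6 had a mean of at least 1. Summed over the 9, the level was 358.2 to 2973 in libraries with mometasone and 980.6 to 5967 in those without. KRT17, with the highest mean (1131, range 76.43 to 4951), weighs most in this sum. The part of the summed level in the results was not tested. Of other cell types, 3 of 4 fibroblast markers had a mean of at least 1, led by COL1A1 (629.5), as had 1 of 6 leukocyte, 1 of 4 neuronal, 0 of 4 endothelial and 0 of 3 spermatid markers. The spermatid genes PRM1 and TNP1 were listed at 0 in every library, and ACRV1 had a mean of 0.670. The neuronal genes SYT1, SNAP25 and RBFOX3 had means of 0.285, 0.109 and 0.265, while TUBB3, also on that list, had a mean of 20.2.

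All 3 genes were low without mometasone and above 10 with it from 6 h on. CNR1 stayed between 0 and 0.57 in all 78 libraries without mometasone, and 4 of those listed it at 0. With mometasone it lay between 0.58 and 5.27 at 2 h, between 16.03 and 60.8 at 6 h and between 15.46 and 58.68 at 18 h. The ranges with and without mometasone were apart at those times, and 11 of 72 mometasone libraries, all of them at 1 h, did not exceed every library without it. No library without mometasone had CNR1 at 1 or more, so the gene passed the filter on low values only through mometasone libraries. RGCC and MARCHF10 were detected in other treatments as well, at 1 or more in 40 and 50 of the 78 libraries without mometasone. At 6 h RGCC lay between 14.17 and 57.38 with mometasone and between 0 and 2.03 without, and MARCHF10 between 16.8 and 98.36 against 0.21 to 4.97. The plot of every library shows these ranges.

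**Figure D1:**
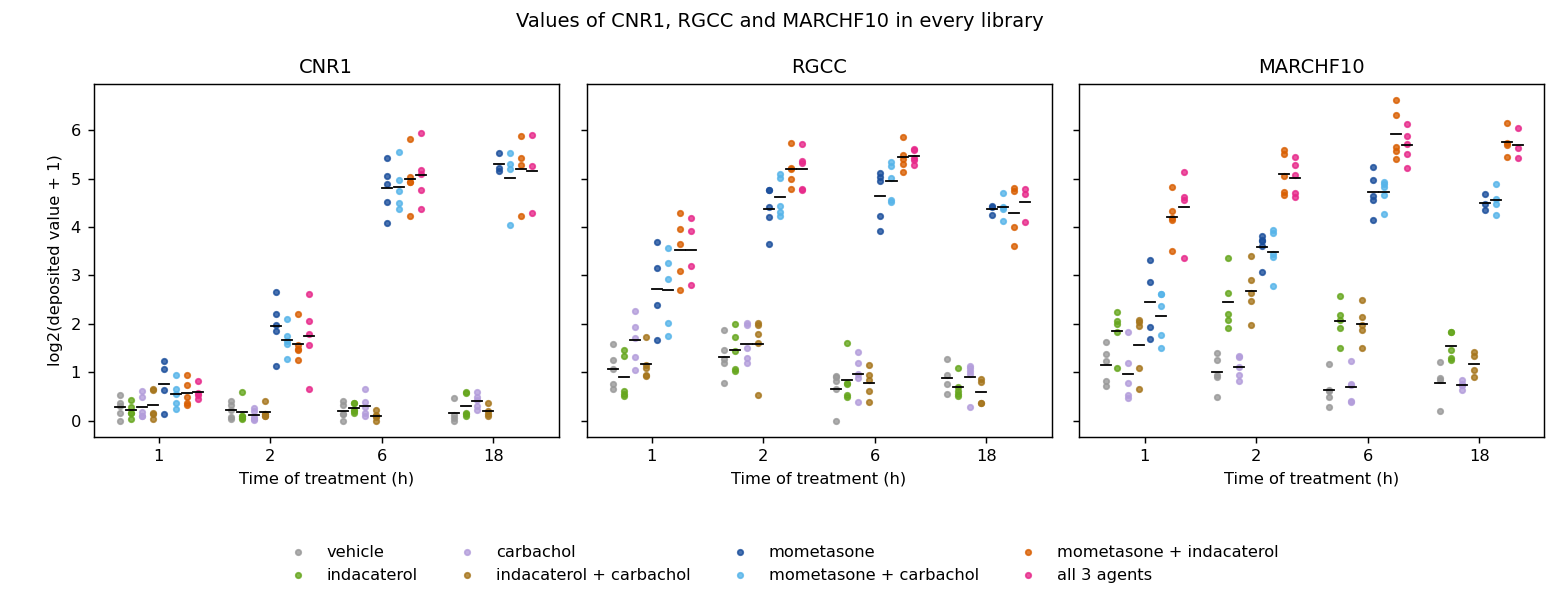
Each point is 1 library, placed by time (x axis, hours) and by log2(deposited value + 1) (y axis), coloured by treatment, with a black bar at the group mean of the log2 values. CNR1 is near the floor at 1 h and rises mainly between 2 and 6 h, RGCC is near its highest level by 2 h, and MARCHF10 is higher in the libraries with both mometasone and indacaterol than with mometasone alone.

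In cells given mometasone alone, the contrast by which the genes were chosen, CNR1 stood at 32.3, 22, 42.3, 28.6 and 16.03 at 6 h (replicates 1 to 5), against 0.32, 0.24, 0, 0.10 and 0.09 with vehicle. The mean went from 0.150 ± 0.128 to 28.2 ± 10.0 (SD, n = 5 each), a log2 difference of 4.6 (SE 0.24). For RGCC the same contrast at 6 h went from 0.618 ± 0.366 to 25.5 ± 8.91 (log2 4.0, SE 0.28), and for MARCHF10 from 0.588 ± 0.394 to 26.2 ± 7.73 (log2 4.08, SE 0.27), SD and n = 5 each. At 1 h the log2 differences were 0.49 (SE 0.25) for CNR1, 1.66 (SE 0.30) for RGCC and 1.3 (SE 0.29) for MARCHF10. At 18 h, with 3 mometasone and 4 vehicle libraries, they were 5.15 (SE 0.28), 3.49 (SE 0.34) and 3.73 (SE 0.33). With all 3 agents against indacaterol with carbachol they were 4.98 (SE 0.24), 4.68 (SE 0.28) and 3.70 (SE 0.27) at 6 h, in the same order of genes.

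Mometasone with carbachol against carbachol alone uses libraries that did not enter those contrasts, except that their replicate numbers are the same. CNR1 was not called at 1 h, where it stood at 0.490 ± 0.291 against 0.236 ± 0.210 (SD, n = 5 each; log2 0.26, SE 0.24, adjusted p = 0.517). At 2 h the 5 libraries with mometasone and carbachol held CNR1 at 3.29, 1.43, 2.11, 2.01 and 2.35, against 0.15, 0.02, 0.01, 0.20 and 0.05 with carbachol. At 6 h they held 30.3, 21.5, 46.2, 25.8 and 19.8, against 0.56, 0.21, 0.06, 0.11 and 0.31. The groups did not overlap at either time. CNR1 rose by log2 1.56 at 2 h (SE 0.24, adjusted p = 2.52e-07), 4.52 at 6 h (SE 0.24, adjusted p = 3.65e-35) and 4.62 at 18 h (SE 0.25, adjusted p = 9.89e-34). Among the 14827 genes tested, its rise was the 51st largest at 2 h and the 2nd largest at 6 h.

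RGCC was called from 1 h on. With mometasone and carbachol it stood at 3.04, 8.60, 2.38, 6.59 and 10.8 at 1 h, against 3.83, 2.84, 1.06, 2.28 and 1.5 with carbachol, and these ranges overlapped. The log2 difference at 1 h was 1.05 (SE 0.28, adjusted p = 0.0405), a call that was lost when replicate 2, 4 or 5 was left out (log2 0.98, 1.01 and 0.75, adjusted p = 0.355, 0.256 and 0.124). At 2 h the 5 libraries held 33.2, 18.9, 17.8, 20.6 and 31.3, against 3.07, 1.81, 1.44, 1.27 and 2.92, with no overlap. The rise was log2 3.03 (SE 0.28, adjusted p = 2.41e-16), the 4th largest of all genes tested. It was 3.97 at 6 h (SE 0.28, adjusted p = 1.63e-24) and 3.51 at 18 h (SE 0.30, adjusted p = 2.6e-19).

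MARCHF10 changed about as much as RGCC at 1 h and less than RGCC at 2 h. It stood at 1.82, 5.09, 2.41, 4.17 and 5.11 at 1 h with mometasone and carbachol, against 2.55, 0.70, 0.39, 0.44 and 1.29 with carbachol, and 4 of 5 same-numbered pairs were higher with mometasone. The log2 difference was 1.21 (SE 0.27, adjusted p = 0.00325), and the call was lost without replicate 2 (log2 1.06, adjusted p = 0.154) or replicate 4 (log2 1.05, adjusted p = 0.161). At 2 h the values were 13.7, 5.86, 9.46, 9.93 and 14.3 against 0.75, 0.91, 1.15, 1.53 and 1.5, and from then on the groups did not overlap. MARCHF10 rose by log2 2.38 at 2 h (SE 0.27, adjusted p = 4.67e-12), 4.01 at 6 h (SE 0.27, adjusted p = 3.05e-26) and 3.82 at 18 h (SE 0.29, adjusted p = 6.23e-23). Of all genes tested, 0.580% were called higher in this comparison at 1 h, 1.57% at 2 h, 5.60% at 6 h and 4.71% at 18 h. Of the 3 genes, 2 were called at 1 h and all 3 at each later time. The genes were chosen as strong responses to mometasone. Their calls and ranks here, and their calls over indacaterol below, are therefore no separate sign that they stand out from that background. Both calls at 1 h were also lost with only the compared groups in the fit (adjusted p = 0.416 for RGCC and 0.348 for MARCHF10).

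On top of indacaterol all 3 genes rose as well from 2 h on. At 1 h the estimates for RGCC and MARCHF10 were larger than over carbachol (1.05 and 1.21), a difference that was not tested. Mometasone with indacaterol against indacaterol alone left CNR1 uncalled at 1 h (log2 0.36, SE 0.24, adjusted p = 1) and raised it by 1.42, 4.73 and 4.90 at 2, 6 and 18 h. RGCC rose by 2.65 at 1 h (SE 0.28, adjusted p = 3.86e-13), with 7.54, 14.5, 5.49, 18.5 and 11.5 against 0.52, 1.75, 0.42, 1.53 and 0.46, and no overlap. Its later rises were 3.74, 4.61 and 3.60. MARCHF10 rose by 2.36 at 1 h (SE 0.27, adjusted p = 9.04e-12), then by 2.67, 3.87 and 4.23. All of these later rises were called, with adjusted p of 1.54e-06 for CNR1 at 2 h and smaller values elsewhere, where 0.809%, 2.75%, 6.73% and 5.11% of genes were called higher at the 4 times.

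The 3 genes differed in how fast they approached their highest level. Over the 4 treatments that contain mometasone, the group mean of CNR1 was 1.29 to 1.99% of its highest mean at 1 h, 5.37 to 8.08% at 2 h and 73.0 to 91.8% at 6 h, and it was highest at 18 h in all 4. RGCC had reached 20.5 to 26.7% at 1 h and 79.4 to 84.7% at 2 h, was highest at 6 h in all 4, and stood at 45.8 to 77.4% at 18 h. MARCHF10 reached 14.5 to 43.2% at 1 h and 41.6 to 62.1% at 2 h, and its means at 6 and 18 h were within 83.5 to 100% of the highest. The plot of these percentages gives each treatment.

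**Figure D2:**
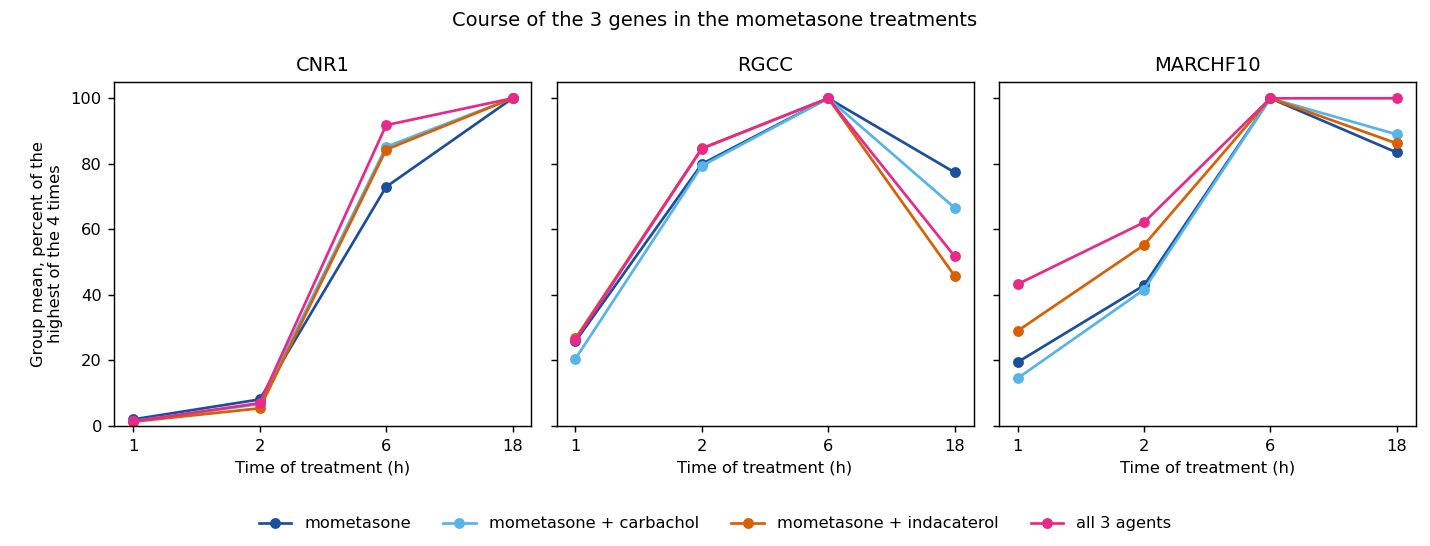
The group mean of the deposited value is drawn as a percent of the highest of the 4 times (y axis) against time (x axis, hours, evenly spaced), with 1 line for each treatment that contains mometasone. At 2 h the means of CNR1 are at 5.37 to 8.08% of the highest and those of RGCC at 79.4 to 84.7%.

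The change of the mometasone effect between neighbouring times was tested in the same model. The genes were chosen as strong responses to mometasone, and CNR1 passed the filter only through mometasone libraries. Calls and ranks of growth, over carbachol or indacaterol, are therefore no separate sign that the genes stand out. Over carbachol, the effect on RGCC grew by log2 1.98 from 1 to 2 h (SE 0.40, adjusted p = 0.00482), where 0.155% of genes were called in either direction. This call was lost without replicate 1 (log2 1.64, adjusted p = 0.359), with only the compared groups (adjusted p = 0.217) and with a pseudocount of 0.1 (adjusted p = 0.141). For CNR1 the same step was 1.29 (SE 0.33, adjusted p = 0.0722) and for MARCHF10 1.17 (SE 0.38, adjusted p = 0.292). From 2 to 6 h the effect on CNR1 grew by 2.97 (SE 0.33, adjusted p = 1.34e-11), the 2nd largest growth of all genes tested, and that on MARCHF10 by 1.63 (SE 0.38, adjusted p = 0.00576), a call lost without replicate 2 (log2 1.39, adjusted p = 0.161). For RGCC this step was 0.95 (SE 0.40, adjusted p = 0.432), and 1.29% of genes were called. From 6 to 18 h the steps were 0.09 for CNR1, -0.46 for RGCC and -0.20 for MARCHF10 (adjusted p = 1 each), with 1.00% of genes called.

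Over indacaterol, no step from 1 to 2 h was called for the 3 genes, with log2 1.06 for CNR1, 1.10 for RGCC and 0.30 for MARCHF10, where 0.202% of genes were called and 2 of the 3 had an unadjusted p below 0.05. From 2 to 6 h CNR1 grew by 3.31 (SE 0.33, adjusted p = 5.29e-14), the largest growth of the 14827 genes tested in that comparison, where 2.58% were called. MARCHF10 had a step of 1.2 (adjusted p = 0.0693) and RGCC by 0.87 (adjusted p = 0.329). From 6 to 18 h the step for RGCC was -1.02 (SE 0.41, 95% interval -1.83 to -0.20, adjusted p = 0.423), against 0.17 for CNR1 and 0.36 for MARCHF10, where 1.27% of genes were called.

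The differences in speed were then tested within libraries, as the difference of log2(value + 1) of 2 genes in the same library, compared between neighbouring times. Each test was an exact two-sided permutation test over libraries, and 18 were made, with adjustment over the 18. From 2 to 6 h with mometasone and carbachol, RGCC minus CNR1 went from 2.95 ± 0.25 to 0.11 ± 0.45 (SD, n = 5 each; exact p = 0.00794, adjusted p = 0.0286). MARCHF10 minus CNR1 went from 1.82 ± 0.25 to -0.11 ± 0.58, and RGCC minus MARCHF10 from 1.13 ± 0.26 to 0.23 ± 0.37, with the same exact p-values. That p is the smallest that 5 against 5 libraries allow, and in each case the ranges did not overlap. With mometasone and indacaterol the first 2 of these differences again passed (-3.15 and -2.59 in log2, exact adjusted p = 0.0286 each), and RGCC minus MARCHF10 did not (-0.56, exact adjusted p = 0.194). From 1 to 2 h with mometasone and carbachol, RGCC gained 0.60 on MARCHF10 (exact p = 0.0159, adjusted p = 0.0476). Over indacaterol the gain was 0.75 (exact p = 0.0397, adjusted p = 0.0893). At 2 h CNR1 stood at only 1.43 to 3.29 with mometasone and carbachol and 1.37 to 3.61 with mometasone and indacaterol. The differences that involve it thus depend on the pseudocount of 1, and no other was used in the exact tests. In limma with 0.1, the step from 1 to 2 h over carbachol was 2.82 for CNR1 (adjusted p = 0.0337). For RGCC it was 2.19 (adjusted p = 0.141).

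Known glucocorticoid target genes gave a scale for this order. On mometasone over carbachol, 10, 16, 19 and 17 of the 20 listed targets were called higher at 1, 2, 6 and 18 h, and their median log2 changes were 0.80, 1.61, 1.73 and 1.44 against 0.01, 0.01, 0.01 and 0.05 over all genes tested. TSC22D3 (GILZ), an anti-inflammatory mediator, went from 8.04 ± 0.804 to 495.3 ± 60.6 at 6 h (SD for 5 libraries each; log2 5.77), and FKBP5, a chaperone that restrains the receptor, from 28.2 ± 2.88 to 293.9 ± 35.1 (log2 3.33). PER1, a clock gene, rose by 3.06 and KLF15, a metabolic transcription factor gene, by 2.79 at that time, and adjusted p was 3.29e-26 or less for these 4. At 2 h a target stood at a median of 86.7% of its own largest log2 change. CNR1 stood at 33.7%, and 2 of the 20 targets were lower: TFCP2L1 (33.4%) and ZBTB16 (10.3%). MARCHF10 stood at 59.4%, with 5 targets lower, and RGCC at 76.1%, with 7 lower. CNR1, TFCP2L1 and ZBTB16 were near the floor with carbachol (0.250, 0.046 and 0.09 at 6 h). There the pseudocount of 1 flattens small rises, so the place of CNR1 on this scale may depend on it. As a plain ratio of means over carbachol at 2 h, CNR1 was raised 26.0-fold, RGCC 11.6-fold and MARCHF10 9.1-fold.

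The tests of indacaterol are not independent of how the genes were selected. Those without carbachol share their mometasone and vehicle libraries with the contrast against vehicle, and those on mometasone with carbachol, also between genes, share the libraries of all 3 agents with the other selecting contrast. No effect of indacaterol on CNR1 was called. Added to mometasone, it gave log2 differences of -0.20, -0.37, 0.19 and -0.09 at 1, 2, 6 and 18 h, and all groups overlapped. The 95% intervals of these differences lay within -0.84 (at 2 h) and 0.66 (at 6 h), and effects inside them cannot be told from none. With carbachol also present the differences were 0.04, 0.07, 0.25 and 0.13. At 18 h mometasone alone had no library of replicate 5, where CNR1 was low, and the same-numbered library with indacaterol was higher in 3 of 3 pairs, without and with carbachol, which the -0.09 does not show. At 1, 2 and 6 h it was higher in 1 of 4, 1 of 5 and 4 of 5 pairs without carbachol and in 1 of 4, 3 of 5 and 3 of 5 with it. Indacaterol alone gave -0.06, -0.04, 0.07 and 0.15. Adjusted p was 0.658 or more in these 12 comparisons.

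Group means of RGCC were higher up to 6 h when indacaterol was added to mometasone. No single comparison passed in the main fit, which leaves out the replicate number. With that number as a block in limma, adjusted p was 0.0436, 0.00695 and 0.0139 at 1, 2 and 6 h. With carbachol present it passed at 1 h only (adjusted p = 0.00837). The block also called more of all genes on mometasone, 524, 2113 and 1669 against 213, 701 and 465 in either direction. At 6 h mometasone alone gave 30.0, 14.2, 31.6, 17.8 and 34.0, and mometasone with indacaterol 38.7, 41.2, 57.4, 34.1 and 44.1. The ranges were apart at 2 and at 6 h, and the same-numbered library with indacaterol was higher in 4 of 4, 5 of 5 and 5 of 5 pairs at 1, 2 and 6 h. How many of all genes did the same was not computed, so these counts do not set RGCC apart. In the main fit 1.32%, 3.66% and 1.62% of all genes were called higher at these times. The log2 differences were 0.81 (SE 0.30, adjusted p = 0.317), 0.83 (SE 0.28, adjusted p = 0.0746) and 0.79 (SE 0.28, adjusted p = 0.131). With carbachol present they were 0.82, 0.57 and 0.52 (adjusted p = 0.165, 0.402 and 0.511), and again all same-numbered pairs were higher. At 18 h the differences were -0.08 and 0.12, with 1 of 3 and 2 of 3 pairs higher.

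The mean of the effects without and with carbachol, a comparison added after the data were seen, called RGCC higher at 3 times. It was 0.81 at 1 h (SE 0.21, adjusted p = 0.00813), 0.70 at 2 h (SE 0.20, adjusted p = 0.00971) and 0.66 at 6 h (SE 0.20, adjusted p = 0.0211), and 0.02 at 18 h (adjusted p = 0.996). The background was wide, with 2.76%, 5.81%, 4.02% and 0.371% of genes called higher. The calls were lost without replicate 1 or 2 at 1 h (log2 0.78 and 0.79, adjusted p = 0.0635 and 0.0693), without replicate 3 at 2 h (0.60, adjusted p = 0.0665) and without replicate 2 or 4 at 6 h (0.52 and 0.62, adjusted p = 0.232 and 0.0998). With a pseudocount of 0.1 all 3 were lost (adjusted p = 0.0999, 0.143 and 0.206). Indacaterol alone gave RGCC differences of -0.17, 0.14, 0.17 and -0.19, none of them called.

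MARCHF10 responded to indacaterol with and without mometasone. Indacaterol alone at 2 h gave 9.33, 3.23, 5.25, 2.76 and 3.62, against 0.87, 1.63, 0.91, 0.40 and 1.38 with vehicle. At 6 h it gave 3.53, 2.77, 3.23, 1.81 and 4.97 against 0.40, 0.53, 0.55, 0.21 and 1.25. Every indacaterol library was above every vehicle library at 2, 6 and 18 h, and the share of all genes for which this held was not computed. MARCHF10 rose by log2 1.45 at 2 h (SE 0.27, adjusted p = 2.59e-05) and 1.41 at 6 h (SE 0.27, adjusted p = 1.29e-04). The differences at 1 h (0.69, adjusted p = 0.476) and 18 h (0.76, adjusted p = 0.822) were not called. Of all genes, 1.30%, 2.99%, 0.937% and 0.135% were called higher with indacaterol alone at 1, 2, 6 and 18 h.

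Added to mometasone, indacaterol took MARCHF10 from 2.83, 6.25, 2.24 and 9.03 to 19.2, 27.4, 10.4, 16.8 and 17.4 at 1 h. At 2 h it took it from 12.2, 7.35, 11.2, 12.3 and 13.1 to 32.2, 24.4, 44.4, 25.4 and 47.3, and at 6 h from 24.0, 30.6, 22.5, 16.8 and 36.8 to 98.4, 41.3, 49.6, 46.3 and 79.0. The ranges were apart at all 4 times. The rises were log2 1.75 at 1 h (SE 0.29, adjusted p = 2.62e-06), 1.52 at 2 h (SE 0.27, adjusted p = 8.18e-06) and 1.2 at 6 h (SE 0.27, adjusted p = 0.00144). With only the compared groups in the fit, the calls at 1 and 6 h were lost (adjusted p = 0.181 and 0.0804). At 18 h the difference was 1.26 (SE 0.33, adjusted p = 0.0764), with 43.0, 51.2, 52.4 and 70.4 against 19.6, 24.6 and 21.4. The background of genes called higher was 1.32%, 3.66%, 1.62% and 0.121%, and MARCHF10 was the only 1 of the 3 genes called.

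With carbachol present the rises of MARCHF10 were 2.25 at 1 h (SE 0.29, adjusted p = 7.81e-10), 1.54 at 2 h (SE 0.27, adjusted p = 6.3e-06) and 0.98 at 6 h (SE 0.27, adjusted p = 0.0174). The call at 6 h was lost without replicate 3, 4 or 5 (log2 0.96, 0.99 and 0.91, adjusted p = 0.0527, 0.0730 and 0.0874). At 18 h the difference was 1.15 (SE 0.33, adjusted p = 0.192), and with the replicate number as a block it was 1.17 and called (adjusted p = 0.00316). Here 1.92%, 3.14%, 2.03% and 0.155% of genes were called higher. Over the mean of both effects MARCHF10 was called at all 4 times, by 2.00, 1.53, 1.09 and 1.2, with adjusted p of 3.3e-04 at 18 h and less before.

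**Figure D3:**
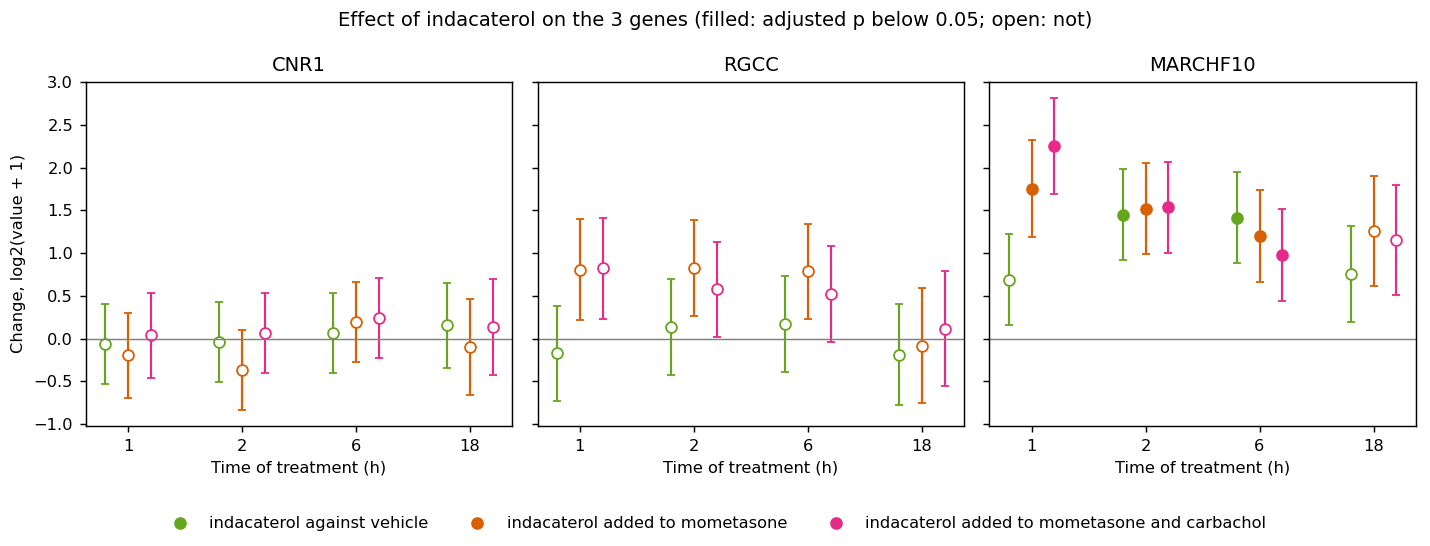
Points give the difference on the log2(value + 1) scale (y axis) that indacaterol made at each time (x axis, hours) on its own, on top of mometasone, and on top of mometasone with carbachol. Lines are 95% intervals from limma, filled points passed an adjusted p of 0.05 and open points did not. CNR1 lies around 0 throughout, RGCC lies above 0 up to 6 h with mometasone and near 0 at 18 h, and MARCHF10 lies above 0 at all times.

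Whether indacaterol acted differently on 2 of the genes was tested within libraries, by exact two-sided permutation tests of their log2 difference with and without indacaterol, adjusted over the 24 tests made. MARCHF10 gained on CNR1 by 1.95 at 1 h and 1.89 at 2 h when indacaterol was added to mometasone, and by 2.22 and 1.47 with carbachol present (exact p = 0.00794, adjusted p = 0.0317 each). The ranges did not overlap in these 4 tests. At 6 h the gains were 1.01 and 0.73 (exact adjusted p = 0.179 and 0.210). Libraries were permuted without regard to replicate number, with which CNR1 varied at 6 h, so these 2 results do not show equal effects. MARCHF10 gained on RGCC with carbachol present by 1.43 at 1 h and 0.96 at 2 h (exact adjusted p = 0.0317 each). Without carbachol these gains were 0.94 and 0.69 (exact adjusted p = 0.0623 and 0.114). At 18 h MARCHF10 gained 1.34 and 1.03 on RGCC without overlap, at the smallest p that 3 against 4 libraries allow (exact p = 0.0286, adjusted p = 0.0623 each). The gains of RGCC on CNR1 did not pass (exact adjusted p = 0.0623 at the lowest).

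In deposited values, the group means of MARCHF10 at every time, and of RGCC up to 6 h, stood further above vehicle with the combination than the single rises added up to. For MARCHF10 at 6 h mometasone with indacaterol stood 62.3 above vehicle, while the single rises summed to 28.3, and the excess lay between 8.44 and 71.2 in the 5 same-numbered sets of libraries. At 2 h the rise was 33.7 against a sum of 14.0, and at 1 h 17.0 against 5.23, with an excess in 5 of 5 and 4 of 4 sets. For RGCC the rise was 34.96 against 19.1 at 2 h and 42.5 against 25.2 at 6 h, with an excess in 5 of 5 sets each time. At 18 h it was 18.9 against 18.6, with an excess in 1 of 3 sets, while MARCHF10 kept an excess in 3 of 3 (53.5 against 22.2). For CNR1 at 2 h the rise was 1.93 against a sum of 2.94, and 0 of 5 sets had an excess. At 6 h it was 32.8 against 28.1, with an excess in 4 of 5 sets, and at 18 h 38.9 against 38.7, with an excess in 3 of 3. With carbachol present CNR1 had an excess in 1 of 4, 3 of 5, 4 of 5 and 3 of 3 sets at the 4 times. These sums use the same mometasone and vehicle libraries as the contrast that selected the genes and carry no test.

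On the log2 scale no interaction of mometasone and indacaterol was called for the 3 genes. For MARCHF10 it was 1.06, 0.07, -0.21 and 0.50 at 1, 2, 6 and 18 h, with a 95% interval of -0.68 to 0.83 at 2 h. For RGCC it was 0.98, 0.69, 0.62 and 0.11, with an interval of 0.17 to 1.80 at 1 h. CNR1 had -0.13, -0.33, 0.13 and -0.25. Adjusted p was 1.00 throughout, and RGCC and MARCHF10 had an unadjusted p below 0.05 at 1 h. The share of all genes with a called positive interaction was 0.0202%, 0.256%, 0.148% and 0.0472% at the 4 times.

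Carbachol left no called mark on the 3 genes. Alone against vehicle, it gave RGCC 2.30 ± 1.10 against 1.15 ± 0.567 at 1 h (SD, n = 5 each; log2 0.59, 95% interval 0.04 to 1.15, adjusted p = 1), the only one of these differences with an unadjusted p below 0.05. Added to mometasone, its 12 differences lay between -0.29 for CNR1 at 2 h and 0.29 for RGCC at 6 h, and all groups overlapped. The background was as low, with 0.0809%, 0.0270%, 0% and 0.00674% of genes called in either direction for carbachol alone. Added to mometasone it was 0.0337%, 0.00674%, 0% and 0%. Where limma called 0 genes, 124 (carbachol alone, 6 h), 164 and 140 (added to mometasone, 6 and 18 h) had an unadjusted p below 0.05.

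In order of group means, the 4 treatments with mometasone came first for every gene and time. For CNR1 at 6 h the order was all 3 agents (35.1), mometasone with indacaterol (32.9), mometasone with carbachol (28.7) and mometasone (28.2), and all neighbours overlapped. For MARCHF10 at 18 h mometasone with indacaterol (54.3) and all 3 agents (52.0) were apart from mometasone with carbachol (22.8) and mometasone (21.8), and these were apart from indacaterol (1.94). RGCC at 18 h had 22.5, 20.4, 19.8 and 19.7 in the 4 mometasone groups, all overlapping, and 0.898 with carbachol, the highest of the rest.

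No other gene of the cannabinoid system was called higher with CNR1. CNR2, the second cannabinoid receptor gene, lay between 0.02 and 0.30, and GPR55, GPR18 and GPR119 had means of 0.0108, 0.0588 and 0.00233, so none of these 4 was tested. TRPV1, an ion channel that anandamide also opens, stood at 4.13 ± 0.652 with mometasone and carbachol against 2.78 ± 0.692 with carbachol at 6 h (SD, n = 5 each; log2 0.45, adjusted p = 0.0967). Among 5 tested genes of endocannabinoid synthesis, 6 of breakdown and 6 of binding and coupling, none was called at 2 or 6 h on mometasone over carbachol. Of all 14827 genes 326 and 1493 were called in either direction at these times, so that counts of 0 are near the background. At 6 h 1 gene of breakdown and none of the other 2 lists had an unadjusted p below 0.05, and median changes were 0.00, 0.15 and -0.04 against 0.01 over all genes. The most abundant were GDE1 (56.2 with mometasone and carbachol, 60.9 with carbachol) and DAGLB (36.3 and 36.4) for synthesis, MGLL (24.6 and 35.1) and ABHD12 (log2 difference 0.14) for breakdown, and GNAI2 (289.6 and 298.1) and GNAI1 (59.4 and 49.2) for coupling. MGLL, which degrades the endocannabinoid 2-AG, was called lower at 18 h (log2 -1.09, adjusted p = 0.00251), and FAAH, which degrades anandamide, at 1 h (log2 -0.73, adjusted p = 0.0376).

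Of 7 listed partners and targets of RGC-32, SMAD3 fell at 6 h, from 30.2 ± 6.78 to 14.3 ± 2.70 (SD, n = 5 in both; log2 -1.02, adjusted p = 2.4e-05), and at 18 h (log2 -0.60, adjusted p = 0.0433). CDK1, CCNB1, CCNB2, PLK1 and AKT1 were not called. Their log2 differences at 6 h ranged from -0.20 to -0.32, each with an unadjusted p below 0.05. Of 10 tested complement genes, CD55, which protects cells from complement, was the only one called at 6 h (87.4 ± 11.4 to 59.7 ± 6.62, log2 -0.54, adjusted p = 0.00227). At 18 h CD55 was lower again (log2 -0.64), and C5 (0.91, adjusted p = 0.00276) and C1S (0.84, adjusted p = 0.0305) were among those higher. Of the 10 complement genes, 3 were called higher and 1 lower at 18 h, where 699 and 841 of all genes were.

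No other MARCH gene was called higher with mometasone over carbachol. Of the 9 others tested, 0 were called higher by limma at any time on mometasone over carbachol, and 1, 0, 1 and 0 were higher at an unadjusted p below 0.05 at 1, 2, 6 and 18 h. With 5.60% of all genes called higher at 6 h, 0 of 9 is near the background and sets the family apart in no way. MARCHF9 had a log2 difference of 0.30 at 6 h (adjusted p = 0.0738). MARCHF4 fell from 30.8 ± 3.09 to 15.6 ± 2.25 at 6 h (SD, n = 5 each; log2 -0.95, adjusted p = 9.44e-12) and by log2 -1.83 at 18 h (adjusted p = 2.63e-27). MARCHF3 fell from 19.5 ± 6.61 to 10.4 ± 3.54 at 6 h (log2 -0.83, adjusted p = 0.00115) and by -0.96 at 18 h (adjusted p = 2.85e-04). The medians of the 9 genes were 0.02 at 6 h and 0.12 at 18 h. MARCHF11, with a highest value of 0.39, was not tested.

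**Figure D4:**
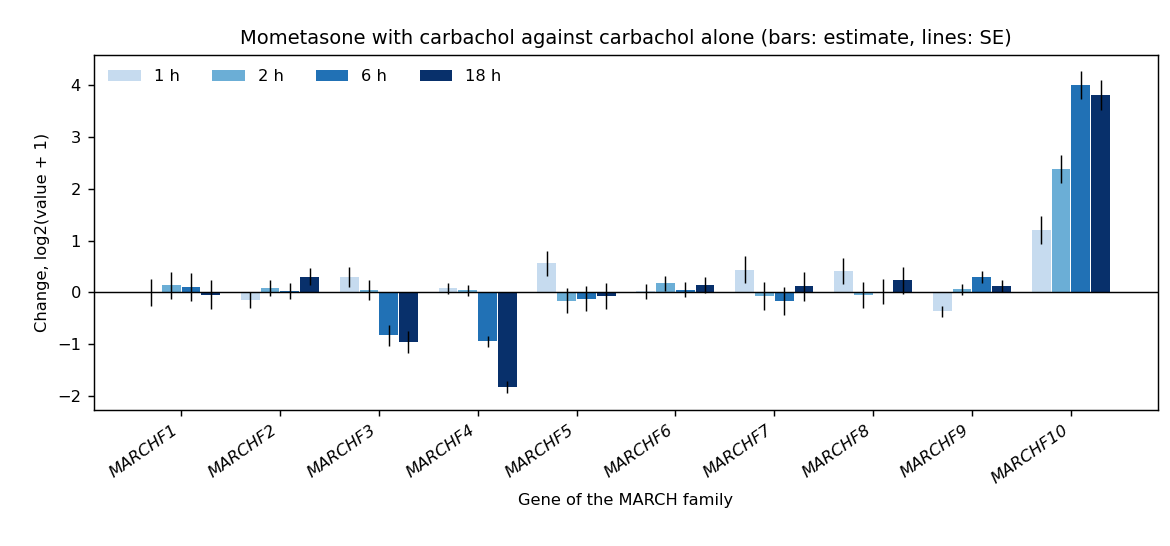
Bars give the difference between mometasone with carbachol and carbachol alone on the log2(value + 1) scale (y axis) for each tested MARCH gene (x axis), with 1 bar for each time and lines of 1 SE. MARCHF10 reaches 4.01 at 6 h, MARCHF3 and MARCHF4 go below 0 at 6 and 18 h, and none of the other 7 was called at any time.

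Indacaterol added to mometasone raised 9, 9, 2 and 1 of 12 tested cyclic AMP target genes at 1, 2, 6 and 18 h. Their median changes were 1.49, 2.52, 0.46 and -0.05. Of all genes, 1.32%, 3.66%, 1.62% and 0.121% were called higher. It also raised 8, 7, 4 and 1 of the 20 glucocorticoid targets and lowered 1 at 6 h, with medians of 0.48, 0.51, 0.06 and 0.12. A further rise with indacaterol was thus not particular to RGCC and MARCHF10. Mometasone over carbachol at 6 h raised 4 of the cyclic AMP targets, among them CRISPLD2 (log2 2.28), the phosphatase gene DUSP1 (1.70) and RGS2 (0.97). These 3 are also on the list of glucocorticoid targets. It lowered 1, the phosphodiesterase gene PDE4B (-1.06). On mometasone over carbachol, NR3C1, the glucocorticoid receptor gene, was lower at 6 h (log2 -0.93, adjusted p = 0.0218), and CHRM3, a muscarinic receptor gene with a mean of 1.24, was lower at 6 and 18 h (-0.53 and -0.49).

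The genes most like each of the 3 over the 32 group means were found by Pearson correlation of log2(value + 1), which is a description over groups that share agents, times and replicate numbers. For CNR1 these were ACSL1 (r = 0.988), MAOA (0.987), CYP4B1 (0.986), SHLD2P1 (0.981) and IGHV3-74 (0.978). ACSL1, which activates fatty acids, stood at 14.6 with carbachol and 60.4 with mometasone and carbachol at 6 h, and MAOA, a monoamine oxidase gene, at 5.84 and 54.2. IGHV3-74, an immunoglobulin segment that shares sequence with others of its family, stood at 0.076 and 2.82, so its value is uncertain. For RGCC they were TSC22D3 (0.976), KLF15 (0.973), ALOX5AP (0.972), SH3TC1 (0.969) and DSEL (0.969). TSC22D3, KLF15 and, for the next gene, CDKN1C are on the list of glucocorticoid targets. For MARCHF10 they were KCNIP3 (0.955), IRS2 (0.954), CDKN1C (0.952), ALOX5AP (0.949) and KLF15 (0.945). Between the 3 genes, r was 0.931 for RGCC and MARCHF10, 0.826 for CNR1 and MARCHF10 and 0.805 for CNR1 and RGCC.

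CNR1 varied with the replicate number. At 6 h replicate 3 was the highest and replicate 5 the lowest in all 4 mometasone groups, with 42.3 and 16.03 for mometasone, 55.98 and 17.8 with indacaterol, 46.2 and 19.8 with carbachol, and 60.8 and 19.6 with all 3 agents. The highest library was 2.33 to 3.15 times the lowest. At 18 h replicate 3 was again the highest in all 4 groups, and replicate 5 the lowest in the 3 groups that have it. RGCC and MARCHF10 did not share the low place of replicate 5: at 6 h the lowest library was replicate 2 or 4 for both. RGCC shared the high place of replicate 3 in part. At 6 h replicate 3 was its highest with indacaterol (57.4), with carbachol (39.8) and with all 3 agents (48.2). With mometasone alone its highest was replicate 5 (34.0). For MARCHF10 the highest was replicate 1 or 5.

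**Figure D5:**
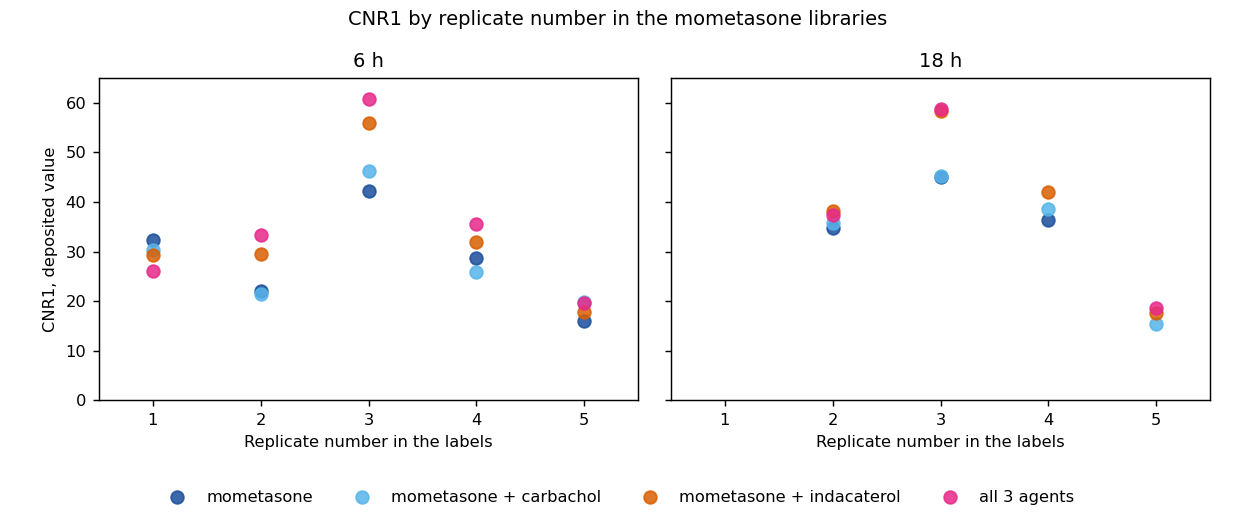
The deposited value of CNR1 (y axis) is drawn for each library of the 4 mometasone treatments against its replicate number (x axis) at 6 h and at 18 h. Replicate 3 is the highest in every treatment at both times, and replicate 5 is the lowest wherever it was used.

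In 6 libraries, all of replicate 1, mitochondrial genes made up 21.3 to 28.3% of the summed value, against a median of 10.96% over all libraries. MARCHF10 was the highest of its group in 5 of these 6. With mometasone and indacaterol at 6 h it stood at 98.4 there, where the next library had 79.0. With indacaterol at 2 h it stood at 9.33 against 5.25, and with all 3 agents at 1 h at 34.4 against 23.6. CNR1 and RGCC were each the highest of the group in 1 of the 6. Without these libraries, the effect of indacaterol on MARCHF10 was 1.22 alone at 2 h (adjusted p = 6.05e-04), 1.02 on mometasone at 6 h (adjusted p = 0.0109) and 2.01 on mometasone with carbachol at 1 h (adjusted p = 7.15e-08).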

How the data were processed

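RNA was sequenced from BEAS-2B cells, and the expression values of CNR1, RGCC and MARCHF10 were read from the deposited values of all genes. Per the submitters' processing notes, the tools were STAR 2.4.2a and bcl2fastq 2.17.1.14, with GRCh38 as the genome. Which quantifier and annotation made the values, and whether strand was used, is not given in the sources used here. TPM is the authors' name for the deposited values. Column totals run from 847289 to 1498421, unlike TPM, so the deposited values were treated as a signal normalised by the authors, not as counts. Depth is unknown, so no counting interval is given, and a 0 is reported as listed at 0. The design had assumed TPM, and the planned test fits both.

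Of the 160 columns, 10 were not used: 4 hold no numbers and 6 are headed with 8 h, a time that no sample label gives. Tests covered the 14827 genes that reached 1 in 5 or more libraries (14446 did not), as log2(value + 1), with a pseudocount of 1. The model was fitted in limma 3.58.1 under R 4.3.3, with 1 coefficient for each of 32 groups, eBayes with a trend and 118 degrees of freedom left for the residual. It was tested on simulated data. Exact permutation tests, likeness and motif searches used Python 3.11.15 with numpy 2.4.6 and pandas 2.3.3, and figures matplotlib 3.10.9. The exact tests and the mean effect of indacaterol without and with carbachol were added after the data were seen.

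The members, gene lists and tests were chosen with earlier results of these data known. From each list, up to 4 genes called for mometasone over carbachol at 6 h with the largest absolute change are named, or up to 2 with the highest mean where none was called. Other names were chosen after their values were seen. For each member, the 5 most alike genes are also named.

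Replicate numbers come from the sample titles. They were taken to pair libraries where deviations from the group means correlated by over 0.1 in every same-numbered pair. This was so in 13 of the 42 comparisons, and in none of those across times. The rule is strict, since 1 weaker pair fails it. The median correlation per comparison was -0.0058 to 0.594 for same-numbered pairs and -0.374 to -0.0062 for other pairs. Libraries of the same number thus tended to be alike, which the main fit and the exact tests did not use.

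Alternatives were a pseudocount of 0.1, no filter, the replicate number as a block, rescaling by the median ratio, leaving out the 6 libraries over 20% mitochondrial, fitting each time or only the compared groups, and leaving out each replicate number.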

Additional observations from a re-analysis of the deposited data

Results flagged for a closer look

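The effect of mometasone differed between times in 4 tested cases. Over carbachol it grew by log2 1.98 for RGCC from 1 to 2 h, by 2.97 for CNR1 from 2 to 6 h and by 1.63 for MARCHF10 from 2 to 6 h. Over indacaterol it grew by 3.31 for CNR1 from 2 to 6 h. The genes were chosen as strong responses to mometasone, so such growth is no separate sign that they stand out.

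In 7 of 90 groups of 4 or 5 libraries, 1 library stood apart from the others by Dixon's criterion, which chance meets in about 1 in 20 groups. For CNR1 these were replicate 2 with indacaterol at 2 h (0.5, the next at 0.07), replicate 1 with mometasone and indacaterol at 2 h (3.61, the next at 1.95) and replicate 4 with indacaterol and carbachol at 2 h (0.32, the next at 0.1). For RGCC they were replicate 2 with indacaterol and carbachol at 1 h (2.3, the next at 1.23), replicate 2 with indacaterol at 6 h (2.03, the next at 0.7) and at 18 h (1.13, the next at 0.62), and replicate 5 with carbachol at 18 h (0.21, the next at 0.95). In 6 of the 7 the group had no mometasone.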

How the results depend on the processing

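Of 1494 recomputed values of the 126 results on the 3 genes, 1442 kept their side of the threshold and none of the 41 called results reversed; 52 uncalled differences changed sign and stayed uncalled. With a pseudocount of 0.1, RGCC lost its calls for mometasone over carbachol at 1 h (1.32), the growth from 1 to 2 h (2.19) and the mean indacaterol effect at 1, 2 and 6 h (0.94, 0.73 and 0.68), MARCHF10 lost that for indacaterol on mometasone with carbachol at 6 h (1.00), and the growth of CNR1 over carbachol from 1 to 2 h passed (2.82). With median-ratio scaling that growth passed (1.3) and RGCC over carbachol at 1 h did not (1.01). Without a filter, or without the 6 libraries over 20% mitochondrial, MARCHF10 passed for indacaterol on mometasone at 18 h (1.26 each).

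With each time fitted alone, MARCHF10 passed at 18 h for indacaterol on mometasone (1.26) and with carbachol (1.15) and RGCC on mometasone at 6 h (0.79), while at 1 h the mean effect on RGCC (0.81) and mometasone over carbachol for RGCC (1.05) and MARCHF10 (1.21) did not. With only the compared groups, the same 3 at 1 h (0.81, 1.05 and 1.21), MARCHF10 with indacaterol on mometasone at 1 and 6 h (1.75 and 1.2) and the growth of RGCC from 1 to 2 h (1.98) did not pass, and that of CNR1 did (1.29). The cause of these changes was not tested.

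By the strict rule above, the replicate number paired the libraries in 13 of 42 comparisons. In the fit blocked on it, RGCC passed for indacaterol on mometasone at 1, 2 and 6 h (0.82, 0.83 and 0.79), and with carbachol at 1 h (0.81). MARCHF10 passed at 18 h (1.24 and, with carbachol, 1.17). So did growth from 1 to 2 h over carbachol for CNR1 (1.29) and MARCHF10 (1.17) and over indacaterol for CNR1 (1.06) and RGCC (1.10), and from 2 to 6 h over indacaterol for MARCHF10 (1.2). The block changed no other call on the 3 genes. It moved the count of called genes by over 1.5 times in 41 of 42 comparisons, as from 1493 to 3723 for mometasone over carbachol at 6 h and from 465 to 1669 for indacaterol on mometasone at 6 h; fitting only the compared groups did so in 28, giving 1592 and 205.

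Leaving out each replicate number in turn gave, where a call changed, 0.75 to 1.37 (RGCC) and 1.05 to 1.60 (MARCHF10) for mometasone over carbachol at 1 h, 0.74 to 1.04 for RGCC with indacaterol on mometasone with carbachol at 1 h, and 0.91 to 1.05 for MARCHF10 at 6 h. The mean indacaterol effect on RGCC was 0.75 to 0.91, 0.60 to 0.74 and 0.52 to 0.73 at 1, 2 and 6 h. Growth was 1.64 to 2.28 for RGCC from 1 to 2 h, and 1.39 to 1.78 over carbachol and 0.81 to 1.41 over indacaterol for MARCHF10 from 2 to 6 h. Depth is unknown, so values below 1, such as CNR1 without mometasone, cannot be given a counting error.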
